A study of Mus musculus with 8 samples.

Results

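The transcripts described here are those of 8 genes through which a cell takes up, stores, exports and senses iron. They are *Tfrc*, *Slc11a2* and *Slc25a37* for uptake and transport, *Fth1* and *Ftl1* for storage, *Slc40a1* for export, and *Aco1* and *Ireb2* for regulation. They were chosen by name, and all 8 were among the 12551 genes with counts. RNA sequencing covered whole tibialis anterior (TA) muscles of 4 WT (Klotho wt/wt) and 4 KL-/- (Klotho null/null) mice. All mice were male and 7 weeks old, and both genotypes were bred from heterozygous Klotho mice on a mixed background. Muscles were snap frozen, and 100 ng of RNA was used per library. Klotho is a co-receptor for a phosphate-regulating hormone and also circulates in a soluble form. The KL-/- mice lack it in the whole body, so an effect within muscle cannot be told apart from a systemic one, and females were not studied. The comparison addresses how the muscle transcriptome differs without Klotho.

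Counts per library summed to 20860262 to 26501093 in WT and 22061526 to 29273758 in KL-/- muscles. The 8 iron genes had 518 to 39760 counts per library, all far above the floor of 3 counts. *Kl* has no row in the counts, so the genotypes were taken from the labels and could not be checked in the counts. The paper reports genotyping its mice by PCR, and it detected no *Kl* mRNA in KL-/- muscle by qRT-PCR. The labels give KL-/- replicate 3 a batch date that no other library has, so this mouse and its batch cannot be told apart. All 9 skeletal muscle markers were counted, and their summed level was 95426 to 109382 CPM (counts relative to the scaled library total) in WT and 112526 to 137256 CPM in KL-/- libraries. In whole muscle, fewer cells of a type and less RNA per cell cannot be told apart. The labels number the samples within a genotype, each was taken as a mouse, and p-values measure the spread between these samples.

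Iron enters most cells bound to transferrin, through the transferrin receptor encoded by *Tfrc*, and is stored in ferritin, a shell of heavy and light subunits. Iron-regulatory proteins match uptake to storage by binding short RNA hairpins called iron-responsive elements (IREs). When iron is scarce, binding in a 3′ UTR stabilizes an mRNA such as that of *Tfrc*, and binding in a 5′ UTR blocks translation of ferritin and of the exporter ferroportin. Skeletal muscle holds much of its iron in myoglobin and in mitochondrial heme and iron-sulfur proteins. Counts of ferritin and ferroportin mRNA do not measure that translational step.

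Because the IRE is what ties several of these transcripts to the same regulators, the hairpins were located in the mouse transcripts (GENCODE M21, mm10). The search read the sense strand of each protein-coding transcript for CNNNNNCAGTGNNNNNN, that is an unpaired C, 5 bases, the loop CAGTGN and 5 bases that pair with the first 5, with G-T pairs allowed. Of the 8 iron genes, 4 held a match (50%), against 214 of the 11772 protein-coding genes with counts (1.82%) and 294 of all 21877 protein-coding genes (1.34%). The 50% follows from the choice of genes, since the mRNAs of *Tfrc*, ferritin and ferroportin are known IRE targets. Transcripts of any length were searched. *Tfrc* had 4 matches in the 3′ UTR within exon 19, on the + strand at chr16:32631220-32631246, chr16:32631599-32631625, chr16:32631664-32631690 and chr16:32631711-32631737. *Fth1* (chr19:9982733-9982759, + strand), *Ftl1* (chr7:45459780-45459806, - strand) and *Slc40a1* (chr1:45925466-45925492, - strand) each had a single match in the 5′ UTR within exon 1. The sequences are 27 bases long, written 5′ to 3′ in the sense of the transcript, with the unpaired C and the loop in capitals:
Tfrc, match 1: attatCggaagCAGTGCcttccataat
Tfrc, match 2: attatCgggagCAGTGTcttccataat
Tfrc, match 3: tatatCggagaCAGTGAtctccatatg
Tfrc, match 4: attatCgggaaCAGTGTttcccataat
Fth1: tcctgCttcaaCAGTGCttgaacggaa
Ftl1: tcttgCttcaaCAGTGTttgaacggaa
Slc40a1: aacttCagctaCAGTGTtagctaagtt
The ferritin hairpins of *Fth1* and *Ftl1* share the stem around the loop. *Slc11a2*, *Slc25a37*, *Aco1* and *Ireb2* held no match to these letters, which says nothing about elements of other form.

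Among the 8 iron genes, *Fth1* was the gene that passed the test, with 31.0% more transcript in KL-/- than in WT muscle. That is 1 of 8 (12.5%), against 14.0% of all 12551 genes with an FDR under 0.05 in edgeR's quasi-likelihood test, so the share called was near that of all genes. In the direction of *Fth1*, 7.35% of all genes were called higher in KL-/- muscle, and 6.67% were called lower. At an unadjusted p under 0.05 in the same test, *Slc11a2* and *Slc40a1* were added, which makes 3 of 8. Of all 12551 genes, at least 3838 and fewer than 4180 had such a p, so 3 of 8 was not far from the share of all genes. The median log2 fold change (KL-/- over WT) of the 8 genes was -0.057, and that of all genes was -0.016. *Fth1* was also the only iron gene whose WT and KL-/- libraries did not overlap, as was so for 19.7% of all genes (10.2% with KL-/- higher and 9.47% with KL-/- lower). CPM values below are normalized with TMM factors and given as means ± SD over 4 mice. FDR values are Benjamini-Hochberg adjusted over all 12551 genes.

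**Figure D1:**
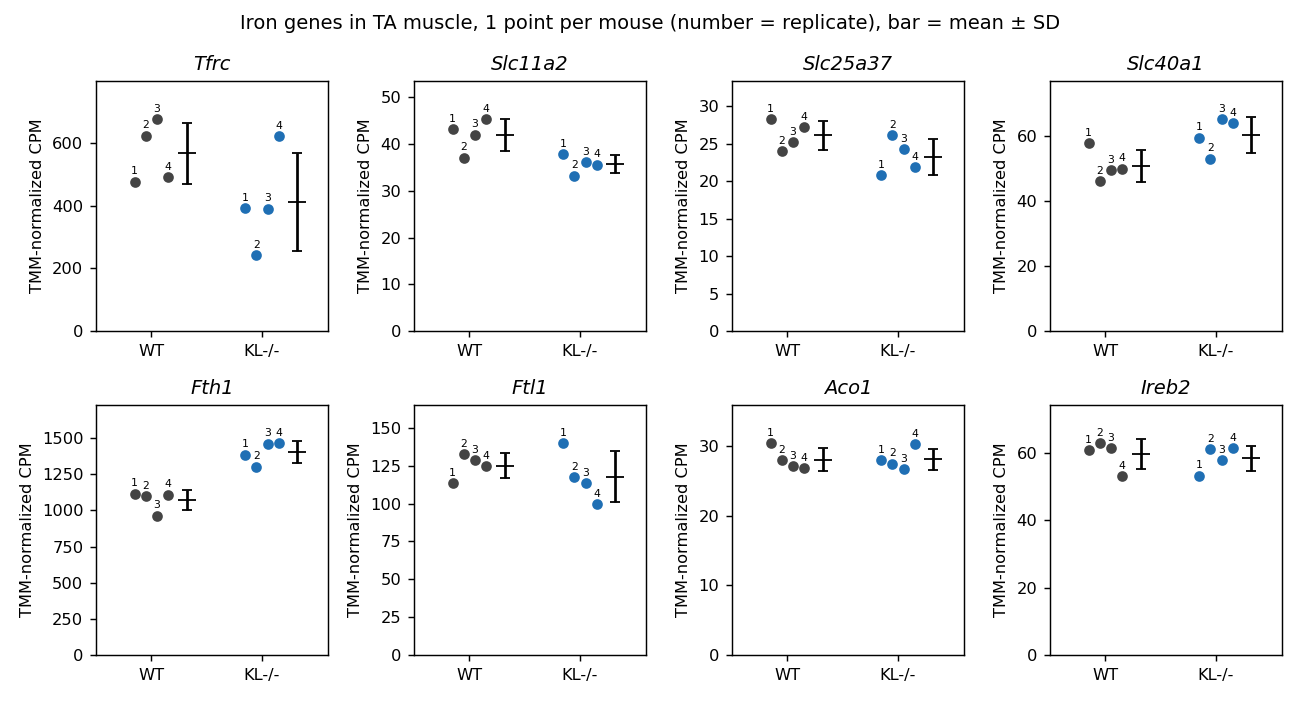
TMM-normalized CPM of the 8 iron genes, with a point for each of the 4 WT (grey) and 4 KL-/- (blue) mice, replicate numbers above the points, and bars for the mean ± SD; every axis starts at 0. The KL-/- points of *Fth1* lie above all WT points, whereas the genotypes overlap in the other 7 genes.

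*Tfrc* (mm10, chr16:32608896-32632794, + strand) encodes the receptor that takes up transferrin-bound iron. Its level was 477, 623, 676 and 491 CPM in WT replicates 1 to 4 and 393, 243, 391 and 621 CPM in KL-/- replicates 1 to 4. KL-/- replicates 1 to 3 were below every WT mouse, and KL-/- replicate 4 was within the WT range. Mean levels were 567 ± 98.0 CPM (WT) and 412 ± 156 CPM (KL-/-). The log2 fold change was -0.46 (SE 0.24, 95% interval -1.005 to 0.084), and *Tfrc* was not called (FDR = 0.221). *Tfrc* had the widest interval of the 8 genes, and its estimate moved most with single mice. It was -0.27 without KL-/- replicate 2 and -0.73 without KL-/- replicate 4, with FDR values of 0.335 and 0.0624.

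*Slc11a2* (chr15:100387900-100423055, - strand) encodes DMT1, which carries ferrous iron out of endosomes into the cytosol. Its level was 43.3, 37.1, 42.1 and 45.3 CPM in WT and 37.9, 33.3, 36.1 and 35.6 CPM in KL-/- replicates 1 to 4. WT replicate 2 was lower than KL-/- replicate 1, and the genotypes otherwise lay apart. Mean levels were 41.9 ± 3.50 CPM (WT) and 35.7 ± 1.92 CPM (KL-/-), and the log2 fold change was -0.23 (SE 0.075, 95% interval -0.40 to -0.063, FDR = 0.0687). *Slc11a2* was thus not called with all 8 libraries, but was called without WT replicate 2 (log2 fold change -0.29, FDR = 0.04997) and when libraries were scaled by their totals (library totals) rather than by TMM factors (-0.35, FDR = 0.0187). Over all alternatives its FDR was 0.0187 to 0.141. Gene counts pool the *Slc11a2* isoforms, of which some are known to carry an IRE.

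*Slc25a37* (chr14:69241851-69285103, - strand) encodes mitoferrin-1, an importer of iron into mitochondria. WT libraries held 28.3, 23.96, 25.2 and 27.2 CPM, and KL-/- libraries held 20.8, 26.1, 24.2 and 21.9 CPM. KL-/- replicates 2 and 3 were within the WT range, and replicates 1 and 4 were below it. The log2 fold change was -0.17 (SE 0.090, 95% interval -0.37 to 0.032, FDR = 0.221), with means of 26.1 ± 1.94 CPM (WT) and 23.3 ± 2.41 CPM (KL-/-). With library totals it was -0.29 and called (FDR = 0.0422).

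*Fth1* (chr19:9980600-9985111, + strand) encodes the ferritin heavy chain, which oxidizes iron as it enters the shell. Its level was 1117, 1097, 965 and 1110 CPM in WT and 1386, 1303, 1463 and 1468 CPM in KL-/- replicates 1 to 4. The lowest KL-/- mouse was above the highest WT mouse. *Fth1* rose 1.31-fold, from 1072 ± 72.3 CPM (WT) to 1405 ± 77.6 CPM (KL-/-), with a log2 fold change of 0.39 (SE 0.077, 95% interval 0.22 to 0.56, FDR = 0.0136). By p-value it ranked 527 of 12551 genes. It was called in all 8 fits that left out a library, with log2 fold changes of 0.34 to 0.43. Within the larger batch date, without KL-/- replicate 3, the log2 fold change was 0.37 (FDR = 0.0451). With library totals, which moved the median of all genes to -0.13, the *Fth1* log2 fold change was 0.27 (FDR = 0.0321). With the replicate number added to the model as a block, it was 0.39 and *Fth1* was not called (FDR = 0.0614).

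*Ftl1* (chr7:45457944-45459886, - strand) encodes the ferritin light chain, which aids the formation of the iron core. It was 114, 133, 128 and 125 CPM in WT and 140, 117, 114 and 99.7 CPM in KL-/- replicates 1 to 4. The KL-/- values spread to both sides of the WT range. The log2 fold change was -0.085 (SE 0.099, 95% interval -0.31 to 0.14, FDR = 0.585), between means of 125 ± 8.21 CPM (WT) and 118 ± 16.7 CPM (KL-/-). The interval of *Ftl1* ended below the lower end of that of *Fth1*.

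The GENCODE annotation holds further ferritin-named genes and pseudogenes, among them 3 copies of *Ftl1* or *Ftl2*, 2 *Fth* pseudogenes and 9 genes or pseudogenes of the *Fthl17* family. None of these has a row in the counts, which does not show that they had no reads. Reads shared with such copies could have been split or dropped in counting, so the levels of *Fth1* and *Ftl1* are uncertain to that extent.

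*Slc40a1* (chr1:45908070-45925594, - strand) encodes ferroportin, the exporter of iron from cells. WT libraries held 57.7, 46.1, 49.5 and 50.0 CPM and KL-/- libraries 59.5, 53.1, 65.2 and 64.0 CPM for replicates 1 to 4. KL-/- replicate 2 was below WT replicate 1, and the remaining KL-/- mice were above all WT mice. Mean levels were 50.8 ± 4.92 CPM (WT) and 60.5 ± 5.51 CPM (KL-/-), with a log2 fold change of 0.25 (SE 0.089, 95% interval 0.051 to 0.45, FDR = 0.0875). *Slc40a1* was not called with all 8 libraries, but was called without KL-/- replicate 2 (0.32, FDR = 0.0250). With library totals the log2 fold change was 0.13 (FDR = 0.287), the highest FDR over all alternatives. Ferroportin is abundant in macrophages that recycle red blood cells. The summed level of 14 macrophage markers was 55.7 to 117 CPM in WT and 39.5 to 74.4 CPM in KL-/- libraries, and its part in the *Slc40a1* values was not tested.

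*Aco1* (chr4:40143265-40199009, + strand) encodes iron-regulatory protein 1, which is a cytosolic aconitase when it holds an iron-sulfur cluster. Its level was 30.5, 27.9, 27.1 and 26.8 CPM in WT and 27.97, 27.5, 26.6 and 30.2 CPM in KL-/- replicates 1 to 4. The ranges nearly coincided, and both means were 28.1 CPM (SD 1.67 in WT and 1.53 in KL-/-). The log2 fold change was 0.0015 (SE 0.069, 95% interval -0.15 to 0.16, FDR = 0.991), and its sign turned under several alternatives.

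*Ireb2* (chr9:54863755-54912534, + strand) encodes iron-regulatory protein 2, whose protein is degraded when iron is plentiful. WT libraries held 60.7, 62.9, 61.5 and 53.1 CPM and KL-/- libraries 53.2, 61.1, 57.8 and 61.3 CPM. The genotypes overlapped, with means of 59.5 ± 4.39 and 58.3 ± 3.78 CPM. The log2 fold change was -0.030 (SE 0.073, 95% interval -0.19 to 0.13, FDR = 0.807). For both regulators, a log2 difference of the size estimated for *Fth1* lay outside the interval. Regulation of these proteins by iron is largely posttranslational and is not read by mRNA counts.

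**Figure D2:**
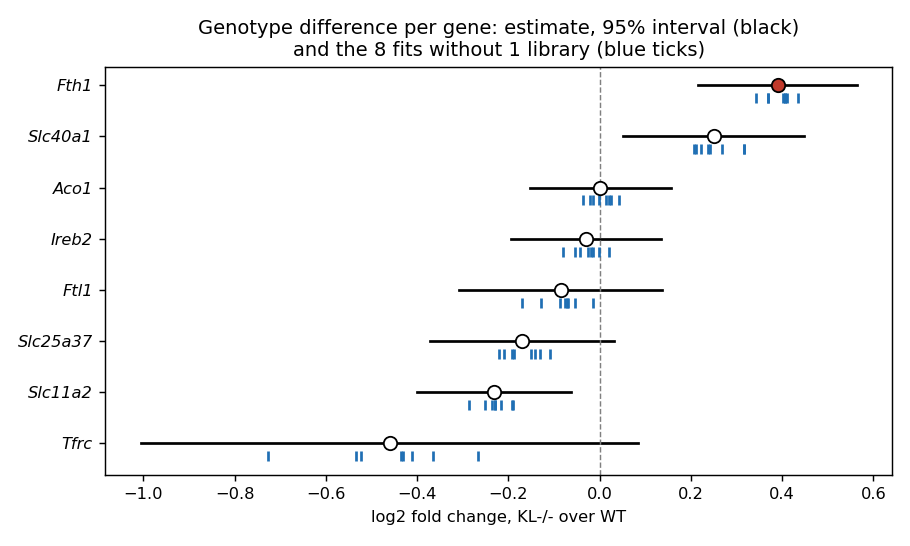
Log2 fold change (KL-/- over WT) of each iron gene with its 95% interval (black) and the 8 estimates with a library left out (blue ticks); the filled point has an FDR under 0.05 and the dashed line marks no difference. *Fth1* is at 0.39 and its ticks at 0.34 to 0.43, *Slc40a1* and *Slc11a2* have intervals on one side of 0, and *Tfrc* spans -1.005 to 0.084.

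Per length of the counted gene, *Fth1* was the most abundant of the 8 transcripts in every library. On the scale of CPM per kb of gene length it was at 710 in WT and 930 in KL-/- muscle. *Ftl1* (129 and 121 CPM per kb) and *Tfrc* (115 and 83.8 CPM per kb) followed, and their ranges overlapped in both genotypes. *Slc40a1* was at 15.04 CPM per kb in WT and 17.9 in KL-/- muscle. *Ireb2* was next, at 10.3 in WT and 10.04 CPM per kb in KL-/- muscle, below the range of *Slc40a1* in both genotypes. *Slc11a2* (7.44 and 6.34 CPM per kb), *Aco1* (6.50 in both) and *Slc25a37* (6.28 and 5.59 CPM per kb) were the lowest, and neighbors in this order did not differ beyond their spread. *Slc11a2* was above *Aco1* in WT and below it in KL-/- muscle by their means.

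**Figure D3:**
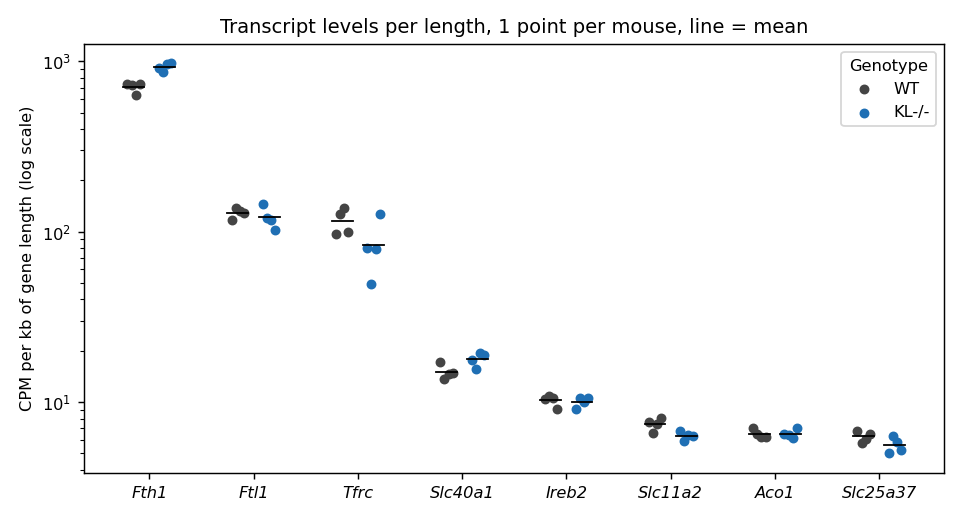
CPM per kb of gene length (log axis) of the 8 iron genes in each WT (grey) and KL-/- (blue) mouse, with the mean as a line. *Fth1* is highest at 710 and 930, *Ftl1* and *Tfrc* overlap between 49.4 and 144, and the lowest 3 genes overlap between 4.99 and 8.04.

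Ratios within a library do not depend on the scaling of libraries. Per length, the ratio of *Fth1* to *Ftl1* transcript was 6.31, 5.30, 4.82 and 5.72 in WT and 6.35, 7.13, 8.27 and 9.45 in KL-/- replicates 1 to 4. Each KL-/- mouse had a higher ratio than each WT mouse, although KL-/- replicate 1 and WT replicate 1 lay close together. The mean ratio was 5.54 ± 0.633 in WT and 7.80 ± 1.35 in KL-/- muscle, a 1.41-fold difference that was not tested. The size of this ratio carries the uncertainty from reads shared with ferritin copies that was given above.

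The ratio of *Tfrc* to *Fth1*, the receptor for uptake over the storage protein, was 0.131, 0.175, 0.215 and 0.136 in WT and 0.0872, 0.0573, 0.0822 and 0.130 in KL-/- replicates 1 to 4. All KL-/- values were below all WT values, with KL-/- replicate 4 just below WT replicate 1. The mean was 0.164 ± 0.0392 in WT and 0.0892 ± 0.0302 in KL-/- muscle, 0.543 of the WT ratio. The ratio of *Ireb2* to *Aco1* overlapped between genotypes, at 1.58 ± 0.117 in WT and 1.55 ± 0.107 in KL-/- muscle. These ratios combine the gene values given above, and no p is given for them.

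**Figure D4:**
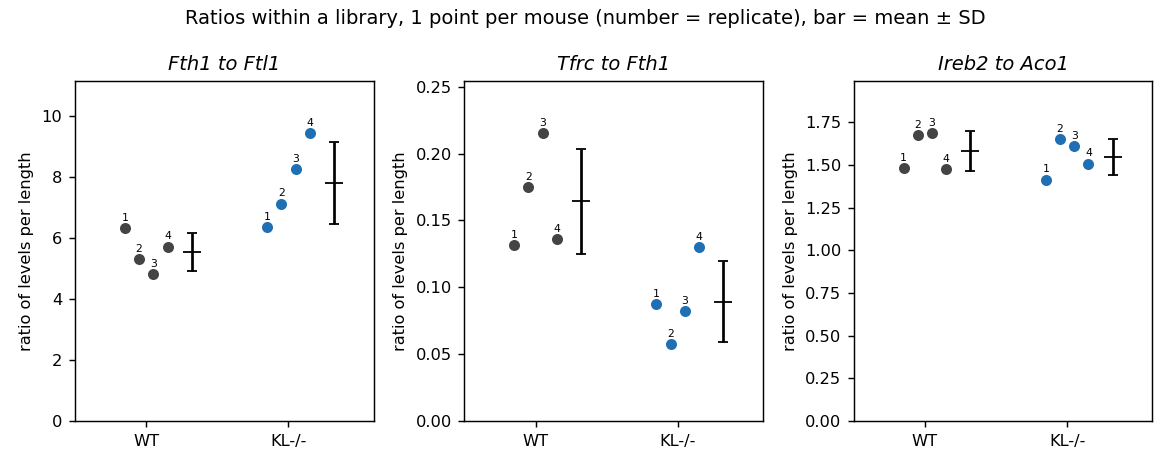
Ratios of levels per length within each library for *Fth1* to *Ftl1*, *Tfrc* to *Fth1* and *Ireb2* to *Aco1*, with a point per mouse, replicate numbers and bars for the mean ± SD. The KL-/- points lie above the WT points for *Fth1* to *Ftl1* (6.35 to 9.45 against 4.82 to 6.31) and below them for *Tfrc* to *Fth1*, and overlap for *Ireb2* to *Aco1*.

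For the 3 iron genes with the smallest p-values, the genes with the most similar profile were found by the root mean square distance between mean-centered log2 CPM over the 8 libraries. Nearest to *Fth1* were *Rps19* (0.022), *Rps16* (0.027) and *Rps9* (0.029), which encode proteins of the small ribosomal subunit, and 434 genes lay within 0.1. The *Fth1* profile itself had a root mean square of 0.211. Nearest to *Slc11a2* (0.145) were *1110008L16Rik* (0.047), *Mtfr1* (0.049), a mitochondrial fission regulator, and *Map3k4* (0.053), a stress-activated kinase. Nearest to *Slc40a1* (0.171) were *Ddx5* (0.044), an RNA helicase, *Wdr45* (0.049), an autophagy gene, and *Immp1l* (0.049), a mitochondrial peptidase subunit. The libraries share their scaling in these distances, and they are given as a description.

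Of 35 listed other genes of iron handling, 25 had counts and 5 passed the test (20%, against 14.0% of all genes), 1 higher and 4 lower in KL-/- muscle. The median log2 fold change of the list was -0.034. *Steap3*, a reductase that turns ferric into ferrous iron in endosomes so that DMT1 can carry it, was at 60.1, 55.8, 60.7 and 51.5 CPM in WT and 32.4, 45.0, 31.1 and 34.8 CPM in KL-/- replicates 1 to 4. The genotypes did not overlap, and *Steap3* fell by 37.3% (log2 fold change -0.67, SE 0.12, FDR = 0.0083). It was called in all 8 fits that left out a library, at log2 fold changes of -0.79 to -0.61.

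*Ncoa4*, the receptor that delivers ferritin to autophagy, was at 17.6, 15.1, 19.7 and 18.3 CPM in WT and 13.7, 13.6, 12.0 and 11.9 CPM in KL-/- replicates 1 to 4. It fell without overlap (log2 fold change -0.47, SE 0.098, FDR = 0.0169), but was not called without KL-/- replicate 3 (FDR = 0.0520) or replicate 4 (FDR = 0.0536). *Hfe*, which binds the transferrin receptor and is mutated in hereditary hemochromatosis, fell from 22.7 ± 1.6 to 16.5 ± 2.82 CPM (log2 fold change -0.46, SE 0.12, FDR = 0.0308). *Hmox1*, the heme oxygenase that releases iron from heme, fell from 6.94 ± 0.944 to 4.54 ± 1.09 CPM (-0.62, SE 0.17, FDR = 0.0453), with overlap between genotypes. *Slc25a28*, or mitoferrin-2, the paralog of mitoferrin-1, rose from 30.8 ± 3.35 to 40.9 ± 5.37 CPM (0.41, SE 0.11, FDR = 0.0387), also with overlap. The calls for *Hfe* and *Hmox1* were lost in 7 of the 8 fits without a library (all but that without KL-/- replicate 2) and that for *Slc25a28* in 6 (all but those without WT replicate 4 or KL-/- replicate 2), with FDR values of up to 0.0860, 0.123 and 0.106. Without KL-/- replicate 3, within the larger batch date, 2 of the 25 genes were called, against 762 of all 12551 genes in the same fit. The most abundant genes not called were *Hfe2* (hemojuvelin, 0.093, FDR = 0.487), a co-receptor known from muscle and liver, and *Pcbp2* (an iron chaperone, 0.15, FDR = 0.130), which was called without KL-/- replicate 2 (FDR = 0.0216).

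All 13 genes of heme synthesis had counts, and 2 were called (15.4%), near the 14.0% of all genes. The median log2 fold change of the list was -0.027. *Fech*, which inserts iron into the heme ring, rose from 193 ± 8.90 to 231 ± 10.3 CPM (log2 fold change 0.25, SE 0.058, FDR = 0.0225) with no overlap. *Alad*, the second enzyme of the pathway, fell from 20.7 ± 2.17 to 15.5 ± 2.38 CPM (-0.42, SE 0.12, FDR = 0.0460) with overlap. *Alas1*, the entry enzyme outside red blood cells, was not called (-0.37, SE 0.11, FDR = 0.0514), although all KL-/- libraries (134 to 197 CPM) were below all WT libraries (200.2 to 235 CPM). *Urod* was not called either (0.12, FDR = 0.195). The calls of *Fech* and *Alad* were both lost in several fits without a library. *Fech* was lost without WT replicate 2 or 3 or KL-/- replicate 3 or 4 (FDR of up to 0.0684). *Alad* was lost in 6 fits, all but those without WT replicate 1 or KL-/- replicate 2 (FDR of up to 0.122). Log2 fold changes over the 8 fits were 0.22 to 0.29 for *Fech* and -0.52 to -0.36 for *Alad*. *Alas1* was called in 2 of the 8 fits without a library and in 5 of the 8 other alternatives, among them library totals and DESeq2.

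Of 26 genes that assemble iron-sulfur clusters, all were counted and 1 was called (3.85%), below the 14.0% of all genes, a difference that was not tested. The median log2 fold change of the list was 0.045. *Nfs1*, the cysteine desulfurase that supplies the sulfur, rose from 103 ± 3.00 to 120 ± 3.81 CPM (log2 fold change 0.23, SE 0.051, FDR = 0.0211), without overlap. Its call was lost in 3 of 8 fits without a library, namely those without WT replicate 3, KL-/- replicate 3 or KL-/- replicate 4 (FDR of up to 0.0615). *Hspa9*, a mitochondrial chaperone (0.16, FDR = 0.263), and *Isca1* (0.10, FDR = 0.389) were the most abundant of the others. With library totals, neither *Fech* (FDR = 0.0940), *Nfs1* (FDR = 0.118) nor *Slc25a28* (FDR = 0.0925) was called.

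**Figure D5:**
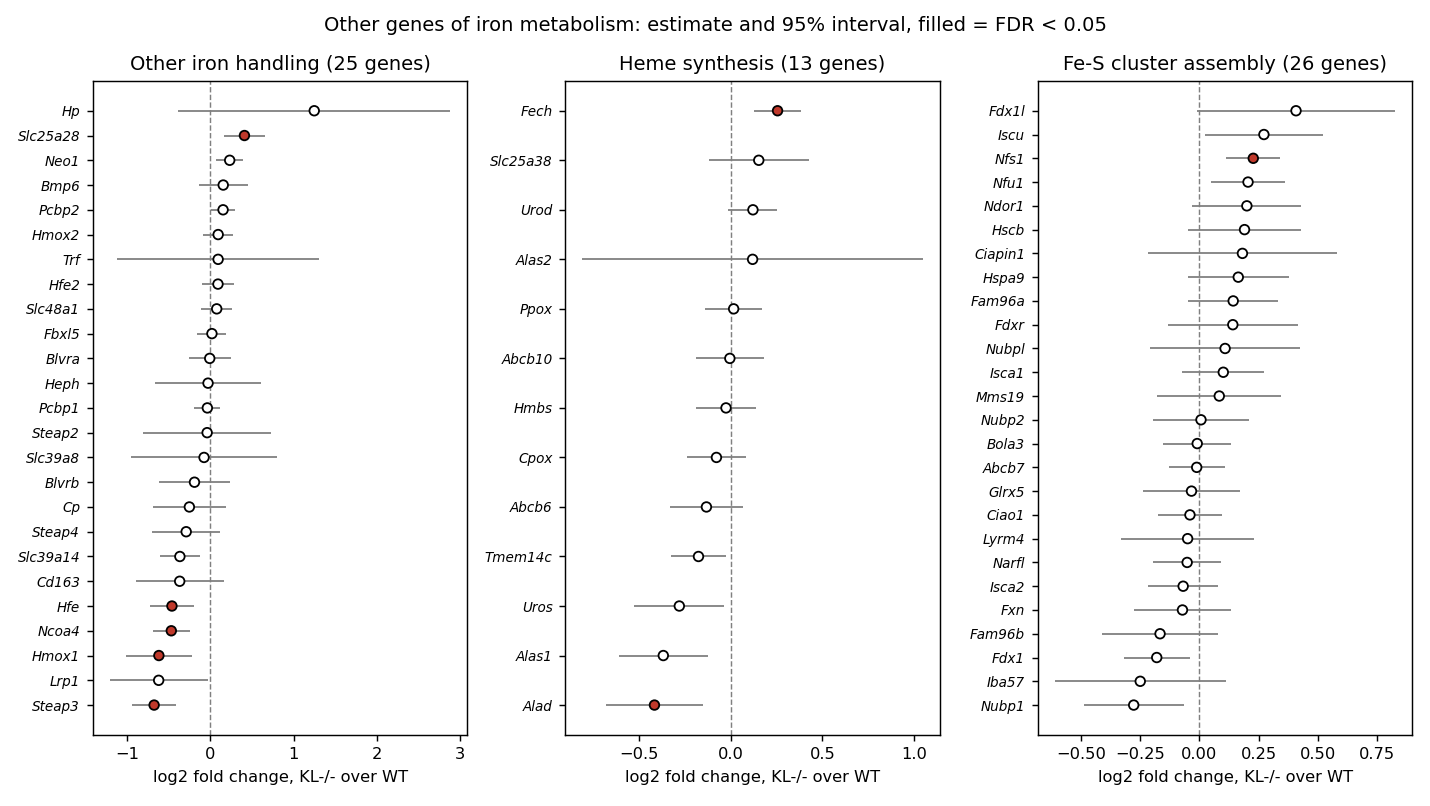
Log2 fold change (KL-/- over WT) with its 95% interval for 25 other genes of iron handling, 13 of heme synthesis and 26 of iron-sulfur cluster assembly, each panel on its own axis; filled points have an FDR under 0.05. The filled points are *Steap3*, *Hmox1*, *Ncoa4*, *Hfe* and *Slc25a28*, then *Alad* and *Fech*, then *Nfs1*.

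Among 5 further transcripts described to carry an IRE, 1 was called (20%, against 14.0% of all genes), which with 5 genes is near the share of all genes. *Cdc14a*, a phosphatase, rose from 27.4 ± 3.91 to 43.5 ± 10.3 CPM (log2 fold change 0.67, SE 0.16, FDR = 0.0283), and the call was lost without WT replicate 2, 3 or 4 or KL-/- replicate 3 (FDR of up to 0.0793). *Epas1*, a hypoxia-inducible factor, was not called (-0.046, FDR = 0.764). The hairpin search matched *Alas2* (chrX:150547459-150547485, + strand), the entry enzyme of heme synthesis in red blood cells, in the 5′ UTR within exon 1, and this hairpin is shown for comparison with those of ferritin:
Alas2: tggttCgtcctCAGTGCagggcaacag
*Epas1*, *Cdc14a* and *Cdc42bpa* held no match to the letters searched.

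Some markers of other cell types passed the test, and their part in the iron gene results was not tested. Of all genes, 14.0% were called, 7.35% higher and 6.67% lower. Of 14 macrophage markers with counts, 4 were called (28.6%), all lower (*Cx3cr1*, *Itgam*, *Adgre1* and *Ccr2*), and 2 had a positive log2 fold change, *Mrc1* (0.16) and *Mertk* (0.34), neither of which was called and which are named after their values were seen. The sums over the 14 macrophage markers are given above beside *Slc40a1*. Of 7 fibroblast markers, 3 were called (42.9%), all lower (*Dpt*, *Dcn* and *Lum*), with sums of 699.9 to 2306 CPM in WT and 388 to 1094 CPM in KL-/- libraries. *Kdr* was the 1 of 7 endothelial markers called (14.3%, near the share of all genes), and it was lower, while the sums were 466 to 688 and 436 to 473 CPM. *Fabp4* was the 1 of 3 counted adipocyte markers called (33.3%), and it was higher, with sums of 179 to 199 and 206 to 252 CPM. These sums were mostly *Fabp4*, at mean levels of 187 CPM in WT and 225 CPM in KL-/- libraries. *Adipoq* (1.53 and 4.28 CPM, FDR = 0.218) and *Cidec* (1.22 and 4.33 CPM, FDR = 0.181) were not called. Of the skeletal muscle markers, 1 of 9 was called (11.1%, near the share of all genes), *Actn3*, which was higher. For red blood cells, which carry much iron and *Tfrc* in their precursors, just *Alas2* and *Bpgm* of 9 listed markers had a row in the counts. The globin genes had no row, which does not show that they had no reads. The sums of *Alas2* and *Bpgm* overlapped, at 89.1 to 101 CPM in WT and 92.3 to 148 CPM in KL-/- libraries, with the highest value in KL-/- replicate 2. These sums were mostly *Bpgm*, which was at 140 CPM in KL-/- replicate 2. *Alas2* was at 8.68 CPM there and was highest in WT replicate 4, at 9.57 CPM.

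In the annotation, *Slc11a2*, *Slc25a37* and *Ftl1* overlap other genes, none of which has a row in the counts. The lack of a row does not show that a gene had no reads. *Gm5475* lies on the opposite strand of *Slc11a2*. *Gm27222*, *Gm27223* and *Gm31748* lie opposite *Slc25a37*, *Gm10252* lies opposite *Ftl1*, and *Gm20236* and the miRNA gene *Gm22133* share the strand of *Slc25a37* and *Ftl1*, respectively. The use of strand in the counting is not given in the sources used here, so reads of opposite genes cannot be told apart.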

How the data were processed

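RNA from TA muscles of 4 WT and 4 KL-/- mice was sequenced. The authors checked reads with FastQC, mapped them to mm10 with STAR, dropped poorly mapped reads and obtained gene counts with featureCounts. The deposited values are raw counts per gene, with no normalization. The annotation and strand setting are not given in the sources used here. The methods name mRNA sequencing and the labels name total RNA.

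Genotypes and replicate numbers came from the labels. Counts were analyzed in R 4.3.3 with edgeR 4.0.16. No gene of the 12551 was lost to the default filter, so genes with few counts may have been removed before deposit. The model held genotype alone and was tested by quasi-likelihood after TMM scaling, with Benjamini-Hochberg adjustment over all genes and an FDR threshold of 0.05. SEs were taken from the test statistic. The floor of 3 counts was 0.102 to 0.144 CPM per library. No libraries were duplicates (chi-square per gene of 9.92 to 84.8 over 12 pairs within genotypes). The tests were checked on simulated counts.

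The 8 genes and all lists were chosen with earlier results of these data known. Of other lists, up to 6 genes past the threshold by smallest p and the 2 most abundant not called were named, and 3 genes nearest in profile to each of 3 iron genes. Marker genes past the threshold were named by this rule. Alternatives were RLE factors, library totals, a minimum of 10 counts in every library, the likelihood ratio test, DESeq2 1.42.0, limma-voom (limma 3.58.1), the replicate number as a block and each library left out. The edgeR 3 quasi-likelihood test was added after seeing the data. *Kl* and reads were not analysed here, and 1 gene of the lists is not reported here on its own.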

Additional observations from a re-analysis of the deposited data

Results flagged for a closer look

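*Fth1* in WT replicate 3 stood apart from the other WT mice. Its level there was 965 CPM, whereas the other 3 WT mice were at 1097 to 1117 CPM. The gap divided by the range was 0.871, above Dixon's 95% critical value for 4 samples. This was 1 of 60 groups of 4 examined, and chance alone flags about 5% of groups.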

How the results depend on the processing

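The number of iron genes called, 1 of 8 as reported, was 3 with library totals (1 higher, 2 lower), 0 with the replicate number as a block, and 1 to 2 over the 8 fits without a library (2 without WT replicate 2 or KL-/- replicate 2). Under the block *Fth1* had a log2 fold change of 0.39 and an FDR of 0.0614. Over the other alternatives its FDR was 5.95e-06 to 0.0451. For other iron handling, 5 genes became 1 under the block and 1 to 7 without a library. For heme synthesis, 2 became 4 with library totals (all lower), 0 under the block and 0 to 4 without a library. For iron-sulfur assembly, 1 became 2 with library totals (both lower), 2 with DESeq2, 0 under the block and 0 to 5 without a library. Among fits without a library, the highest count of each of the 3 lists came without KL-/- replicate 2. Other iron handling was at 3 without WT replicate 1 or 4, at 2 without WT replicate 2 or 3 or KL-/- replicate 1 or 3, and at 1 without KL-/- replicate 4. Heme synthesis was at 1 without WT replicate 4 or KL-/- replicate 1 or 4 and at 0 without WT replicate 2 or 3 or KL-/- replicate 3, and iron-sulfur assembly was at 0 without WT replicate 3 or KL-/- replicate 3 or 4. Where edgeR called 0, some genes had an unadjusted p under 0.05. They were 3 of 8 iron genes (block), 3 to 4 of 13 heme synthesis genes and 4 of 26 iron-sulfur assembly genes. In the fit as reported, at least 3838 and fewer than 4180 of all 12551 genes had such a p. That share was not counted in the fits with 0 called, so these counts do not show an excess over all genes. Over all genes, 1759 (922 higher, 837 lower) became 671 under the block, 2619 with library totals (492 higher, 2127 lower), and 762 (without KL-/- replicate 3) to 2755 (without KL-/- replicate 2) without a library. It was 780 without WT replicate 2, 775 without WT replicate 3 and 778 without KL-/- replicate 4. Of the 8 iron genes, the sign turned for *Aco1*, to -0.12 with library totals, -0.0014 with a minimum of 10 counts, -0.00069, -0.016 and -0.020 without WT replicates 2, 3 and 4 and -0.036 without KL-/- replicate 4 (0.043 at the highest, without WT replicate 1), and for *Ireb2*, to 0.021 without KL-/- replicate 1 (-0.081 at the lowest, without WT replicate 4). It also turned for *Hfe2* (-0.025) and *Isca1* (-0.016) with library totals and for *Epas1* (0.044) without KL-/- replicate 2, which was -0.087 without KL-/- replicate 3. The cause was not tested. No label pairs the mice by replicate number. The correlation of deviations between same-numbered mice was -0.146, 0.181, -0.368 and 0.017 for numbers 1 to 4. With so few mice, these values cannot show whether mice were paired.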
